A study of Mus musculus with 75 samples.

Results

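The 10 genes described here encode activation and checkpoint receptors of the T cell surface. They were taken by name and Ensembl identifier from a fixed list, 10 of the 53465 gene identifiers in the count tables, and all 10 are in both tables. They are Cd69 (ENSMUSG00000030156), Cd44 (ENSMUSG00000005087), Cd5 (ENSMUSG00000024669), Icos (ENSMUSG00000026009), Tnfrsf9 (ENSMUSG00000028965), Pdcd1 (ENSMUSG00000026285), Lag3 (ENSMUSG00000030124), Havcr2 (ENSMUSG00000020399), Cd274 (ENSMUSG00000016496) and Cd200 (ENSMUSG00000022661). Of these, 9 passed the filter on low counts in each table and Havcr2 did not.

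A T cell that meets antigen changes the receptors on its surface. CD69, a lectin-like protein that holds activated cells in lymphoid tissue, and CD44, the hyaluronan receptor, are markers of activation, and CD5 dampens signalling from the antigen receptor. ICOS (a relative of CD28) and 4-1BB (encoded by Tnfrsf9, of the TNF receptor family) deliver costimulatory signals, whereas PD-1 (Pdcd1), LAG-3 (Lag3) and TIM-3 (Havcr2) are inhibitory. PD-L1 (Cd274) is a ligand of PD-1, and CD200 is a ligand of the inhibitory CD200 receptor. Regulatory T cells (Tregs), which restrain other T cells, carry several of the same receptors.

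The libraries came from cultured CD4 effector T cells (CD4+CD25-) of spleen and lymph nodes. In the RiboTag assay, 5 mice from a cross of B6N.129-Rpl22tm1.1Psam/J with B6.Cg-Tg(Cd4-cre)1Cwi/BfluJ carried a tagged ribosomal protein, Rpl22, switched on in the Cd4 lineage by Cre, and RNA was sequenced before (Input) and after (IP) precipitation of the tagged ribosomes. Each mouse gave a culture with anti-CD3/CD28 beads and Tregs, a culture with beads alone (stimulated) and a culture rested in IL7. In the SPEED assay, 4 mice labelled B6.SJL-PtprcaPepcb/BoyJ gave a bead culture with Tregs, a bead culture that had HHT for the last 10 min, a culture with beads alone and an untreated one, and Input, polysomal (Pol) and subpolysomal (SubPol) RNA were sequenced, with HHT from 3 mice. The Tregs were sorted as CD4+YFP+ cells of Foxp3 reporter mice, for which the labels give no RiboTag allele, and cultures without Tregs were filled up with effector cells. The sources used here do not give the number of Tregs, the culture times, the ages of the mice or what HHT stands for. Libraries held 1658481 to 2824875 counts in RiboTag and 1566501 to 4621104 in SPEED.

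Input of a co-culture can hold RNA of the Tregs as well as of the effector cells. So can Pol and SubPol of the SPEED co-cultures, which are not selected by a tag. The RiboTag IP draws on tagged ribosomes. The share of Treg RNA was not tested, because the tables hold identifiers only and no marker of Tregs or of another cell type could be matched to one. In bulk RNA, fewer cells that express a gene and less of its RNA per cell cannot be told apart. The rested RiboTag cultures of mice 1 and 2 stood apart from those of mice 3 to 5 in several of these genes, so values without them are given where they matter. This split was made after seeing these rested levels. Larger changes in mice 3 to 5 for those genes therefore follow in part from the choice, and the values of the subsets are descriptions.

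Gene positions are from the RefSeq annotation of GRCm38.p6. Cd69 is at chr6:129267324-129275375 and Lag3 at chr6:124904359-124912434, Icos at chr1:60960773-61000322 and Pdcd1 at chr1:94038305-94052553, and Cd5 at chr19:10718107-10739026 and Cd274 at chr19:29362107-29388095. Cd44 is at chr2:102811141-102901669, Tnfrsf9 at chr4:150920155-150946104, Havcr2 at chr11:46454931-46481255 and Cd200 at chr16:45382111-45409060. Counts are per whole gene, so no isoform is told apart. RefSeq start-site windows (250 bases before to 50 after a start) matched 7 of the 10 genes with 8 windows, and 4 are shown, of genes that the results below turn on. An inner start lies inside the annotated span of the gene. Letters in capitals match AP-1 (TGANTCA), the NFAT core in the form TGGAAA or the NF-kB consensus on either strand. Forms of the NFAT core with another first base were not searched.
Tnfrsf9, inner start, chr4:150927749-150928048, plus strand: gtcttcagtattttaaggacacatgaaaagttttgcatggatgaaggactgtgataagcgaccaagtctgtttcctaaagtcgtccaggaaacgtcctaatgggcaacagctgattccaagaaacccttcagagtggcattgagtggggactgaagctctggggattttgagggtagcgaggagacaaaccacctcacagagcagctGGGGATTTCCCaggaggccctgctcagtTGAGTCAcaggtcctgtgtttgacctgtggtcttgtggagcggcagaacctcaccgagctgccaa
Pdcd1, chr1:94052504-94052803, minus strand: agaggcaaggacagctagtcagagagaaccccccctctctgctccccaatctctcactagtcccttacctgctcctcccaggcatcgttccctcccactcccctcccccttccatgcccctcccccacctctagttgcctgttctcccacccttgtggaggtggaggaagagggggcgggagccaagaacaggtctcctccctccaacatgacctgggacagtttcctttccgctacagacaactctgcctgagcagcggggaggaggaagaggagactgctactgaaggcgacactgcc
Cd44, chr2:102901616-102901915, minus strand: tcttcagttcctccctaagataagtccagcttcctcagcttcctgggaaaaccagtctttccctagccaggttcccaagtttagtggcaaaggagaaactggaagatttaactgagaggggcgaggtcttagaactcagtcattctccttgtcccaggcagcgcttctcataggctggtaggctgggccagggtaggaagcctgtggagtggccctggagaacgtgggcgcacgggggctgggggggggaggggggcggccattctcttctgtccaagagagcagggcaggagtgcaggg
Cd274, inner start, chr19:29367188-29367487, plus strand: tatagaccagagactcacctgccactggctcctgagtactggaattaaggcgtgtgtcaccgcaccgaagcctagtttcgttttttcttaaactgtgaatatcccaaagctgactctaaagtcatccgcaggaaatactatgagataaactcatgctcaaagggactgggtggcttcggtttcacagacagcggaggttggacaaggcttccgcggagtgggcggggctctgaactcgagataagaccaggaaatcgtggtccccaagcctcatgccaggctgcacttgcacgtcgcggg

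In the Tnfrsf9 window, an AP-1 match begins at base -15 from the start, and 2 overlapping NF-kB matches begin at bases -43 and -42. The outer Tnfrsf9 start and the Cd5 window held 1 NFAT core match each, and the Havcr2 window held 1 AP-1 match. The windows of Pdcd1, Cd44, Cd274 and Cd200 held none of the letters searched, which does not mean that they lack other forms of the NFAT core. Of 32851 mouse windows of this length, 7.8% held an AP-1 match, 21.4% an NFAT core match and 4.5% an NF-kB match. A match describes the letters only, and no binding data are in this series.

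Bead stimulation moved the receptors in 2 patterns that differed between the assays. The RNA of Tnfrsf9, Pdcd1, Lag3 and Cd200 was higher in stimulated than in unstimulated cells in both. Cd69, Cd44, Icos and Cd274 were higher than in IL7-rested cells in RiboTag but lower than in untreated cells in SPEED. In RiboTag Input, 9 of 9 tested members rose, with a median log2 change of 1.41, beside 63.3% of all 10751 tested genes changed and a median over all genes of -0.005. In SPEED Input, 4 rose and 4 fell, beside 54.4% of 12428 genes changed. With so many genes changed, the share of members called is read as a description.

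Tnfrsf9 had 94.1, 59.6, 95.3, 105 and 106 CPM (each count scaled to its library's total with TMM factors) in stimulated RiboTag Input of mice 1 to 5, against 20.4, 19.8, 1.9, 8.59 and 7.19 CPM in IL7 rest. The groups did not overlap, and within rest the cultures of mice 1 and 2 were the highest. The log2 fold change was 2.97 (SE 0.34, adjusted p = 6.42e-09, edgeR's quasi-likelihood test), higher in 5 of 5 mice, and 4.14 in mice 3 to 5 alone against 1.92 in mice 1 and 2 alone. In SPEED Input, Tnfrsf9 had 214, 189, 224 and 217 CPM in stimulated cells and 44.8, 22.7, 38.1 and 29.6 CPM in untreated cells of mice 1 to 4. That is a log2 fold change of 2.64 (SE 0.22, adjusted p = 4.74e-13), again with no overlap.

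Pdcd1 had 65.6, 61.5, 77.9, 54.2 and 67.7 CPM in stimulated RiboTag Input and 34.3, 44.2, 19.5, 11 and 12.8 CPM in IL7 rest. Every stimulated library lay above every rested one, and mice 1 and 2 were again the highest at rest. The log2 fold change was 1.41 (SE 0.25, adjusted p = 1.29e-05), 2.22 in mice 3 to 5 alone and 0.69 in mice 1 and 2 alone. In SPEED Input, Pdcd1 had 132, 166, 136 and 157 CPM in stimulated cells, against 31.7, 12.6, 20.6 and 17.6 CPM in untreated cells. The log2 fold change there was 2.84 (SE 0.24, adjusted p = 1.5e-12). The change was larger in SPEED than in RiboTag by 1.43 on the log2 scale (adjusted p = 0.00547 in a joint edgeR fit of 27 Input libraries), but with RiboTag mice 3 to 5 alone it did not pass (RiboTag minus SPEED -0.64, adjusted p = 0.2).

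Cd200 averaged 213 ± 41.7 CPM in stimulated RiboTag Input and 50.8 ± 13.9 CPM in IL7 rest (SD, n = 5 each). In SPEED Input it averaged 408 ± 32.9 CPM in stimulated cells and 50.5 ± 16.8 CPM in untreated cells (SD, n = 4 each). Its log2 fold changes were 2.07 (SE 0.17, adjusted p = 5.09e-12) and 3.01 (SE 0.18, adjusted p = 3.25e-17), and no stimulated library overlapped an unstimulated one. The rested cultures of mice 1 and 2 held 67.8 and 63.1 CPM and those of mice 3 to 5 held 46.6, 39.6 and 37 CPM.

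Lag3 was read almost only in stimulated cells. Stimulated RiboTag Input held 4.62 to 6.93 CPM, 65 counts over 5 libraries, against 3 counts over the 5 rested libraries, all in mice 1 and 2. The ratio was 20.2, with a counting interval (95%) of 6.62 to 101. In SPEED Input, the stimulated libraries held 8.66, 14, 7.23 and 11.8 CPM, 127 counts in all, and the untreated libraries held 0. With 3 counts over the untreated group as the limit of a count of 0, Lag3 was at least 56.3-fold higher in stimulated Input and at least 59.5-fold higher in stimulated Pol. The intervals cover counting error only. The limits take the stimulated counts as exact, and neither covers the spread between mice. In RiboTag IP the ratio was 23.4 (7.68 to 116). With Lag3 at these values, the members' median log2 change was 1.41 in RiboTag Input and 0.04 in SPEED Input, as with its fitted values.

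Cd69 showed the opposite directions plainly. In RiboTag Input it had 152, 154, 244, 224 and 203 CPM in stimulated cells and 71, 139, 73.8, 68.7 and 69.4 CPM in IL7 rest, with no overlap. In SPEED Input it had 210.1, 189.7, 219 and 198 CPM in stimulated cells and 403, 502, 537 and 466 CPM in untreated cells, also with no overlap. For Cd69, the stimulated levels of the assays lay close to each other and the unstimulated levels far apart, although the tables were scaled separately. The other genes with opposite directions varied in this. Mean stimulated Input in RiboTag and SPEED was 85.7 and 46 CPM for Cd44, 109 and 47.6 CPM for Cd274, and 257 and 300 CPM for Icos. The log2 fold change of Cd69 was 1.21 (SE 0.22, adjusted p = 1.85e-05) in RiboTag and -1.23 (SE 0.14, adjusted p = 1.01e-09) in SPEED. In RiboTag it was 1.69 in mice 3 to 5 alone and 0.54 in mice 1 and 2 alone, where it did not pass (adjusted p = 0.184). For Cd69 only mouse 2 stood apart at rest (139 CPM), and mouse 1 (71 CPM) lay among mice 3 to 5. The stimulated levels of mice 1 and 2 (152 and 154 CPM) were the lowest.

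Cd44 averaged 85.7 ± 11.7 CPM in stimulated RiboTag Input and 35.4 ± 6.78 CPM in IL7 rest, a log2 fold change of 1.28 (SE 0.17, adjusted p = 1.02e-07, n = 5 each, edgeR). In SPEED Input it averaged 46 ± 10.7 CPM in stimulated cells and 99.3 ± 14.2 CPM in untreated cells, a log2 fold change of -1.11 (SE 0.21, adjusted p = 3.05e-05, n = 4 each, edgeR). Neither pair of groups overlapped.

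Cd274 had 77.7, 44.4, 142, 115 and 165 CPM in stimulated RiboTag Input and 20.4, 31.3, 60.4, 42.5 and 39.1 CPM in IL7 rest. The ranges overlapped because stimulated mouse 2 lay below rested mouse 3, although Cd274 was higher in 5 of 5 mice. The log2 fold change was 1.5 (SE 0.43, adjusted p = 0.00308). In SPEED Input, Cd274 had 49.5, 48.7, 42.5 and 49.8 CPM in stimulated cells and 118, 93.7, 113 and 92.2 CPM in untreated cells, a log2 fold change of -1.13 (SE 0.20, adjusted p = 8.48e-06).

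Icos moved least of these 4. It averaged 257 ± 17.2 CPM in stimulated RiboTag Input and 211 ± 8.38 CPM in IL7 rest (log2 0.28, adjusted p = 0.0109, n = 5 each, edgeR). In SPEED Input it had 288, 290.1, 319 and 301 CPM in stimulated cells and 521, 229, 450.0 and 421 CPM in untreated cells (log2 -0.44, adjusted p = 0.0337). Untreated mouse 2 lay below every stimulated library, and the SPEED call was lost without mouse 1, 3 or 4, with another scaling, with no filter and with only the compared groups fitted (adjusted p up to 0.339 over 10 alternatives). Cd5 rose in RiboTag Input (log2 0.24, adjusted p = 0.0109), not without mouse 5, and in SPEED Input its log2 change was 0.03 (95% interval -0.23 to 0.30).

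**Figure D1:**
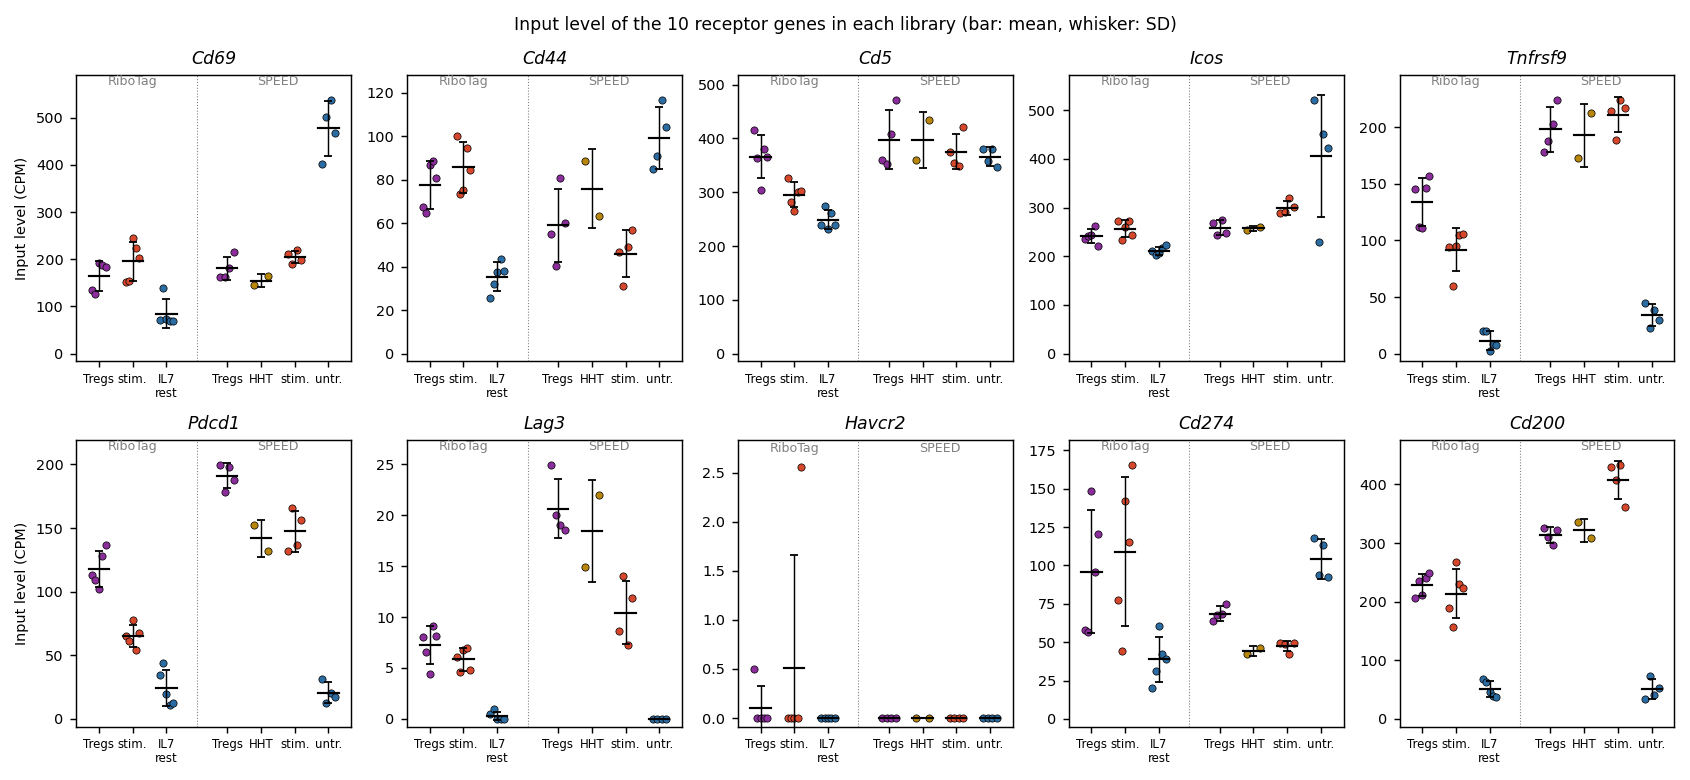
Input level of each member (CPM, linear axis from 0) in every library of the 7 culture groups, with the mean as a bar and the SD as a whisker; RiboTag groups are left of the dotted line and SPEED groups right of it. Cd69 lies at 403 to 537 CPM in untreated SPEED cells and at 68.7 to 139 CPM in IL7-rested RiboTag cells, while Tnfrsf9, Pdcd1, Lag3 and Cd200 are low in both unstimulated groups.

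The difference between the assays in the stimulation change passed the test for 7 of 9 members, beside 17.8% of 11232 genes tested jointly. RiboTag minus SPEED, it was 2.44 for Cd69 (SE 0.25, adjusted p = 5.23e-08), 2.40 for Cd44 (SE 0.26, adjusted p = 1.64e-07), 2.64 for Cd274 (SE 0.42, adjusted p = 4.14e-05) and 0.72 for Icos (adjusted p = 0.00574). It was -1.43 for Pdcd1 and -0.94 for Cd200 (adjusted p = 0.00727), and Lag3, at 0 in untreated cells, passed too (adjusted p = 0.0332), but not in 10 of 16 alternatives. With RiboTag mice 3 to 5 alone, the differences of Pdcd1, Cd200 (-0.45, adjusted p = 0.199) and Lag3 did not pass, while those of Cd69, Cd44, Cd274 and Icos did. For Tnfrsf9 it was 0.33 (SE 0.38, adjusted p = 0.603), and 1.48 with RiboTag mice 3 to 5 alone, where it passed (adjusted p = 0.00717). In RiboTag mice 1 and 2 alone, Icos did not pass (adjusted p = 0.124). For Cd5 it was 0.22 (95% interval -0.05 to 0.48). The unstimulated culture (IL7 rest or none), the mouse strain and the assay differ together between these tables, so they cannot be told apart.

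The ribosome-bound fractions gave similar values. In RiboTag IP, 8 of 9 members rose, beside 64.7% of genes changed, and Cd5 had a log2 change of 0.07 (95% interval -0.10 to 0.23). In SPEED Pol, 4 rose and 3 fell, beside 55.8% of genes changed. Cd69 fell by 1.67 on the log2 scale in Pol (SE 0.14, adjusted p = 7.27e-13), Cd44 by 1.07 and Cd274 by 1.36, while Icos had a change of -0.32 (adjusted p = 0.117). The RiboTag IP call of Cd274 was lost in mice 1 and 2 alone, as were those of Cd69 and Lag3.

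**Figure D2:**
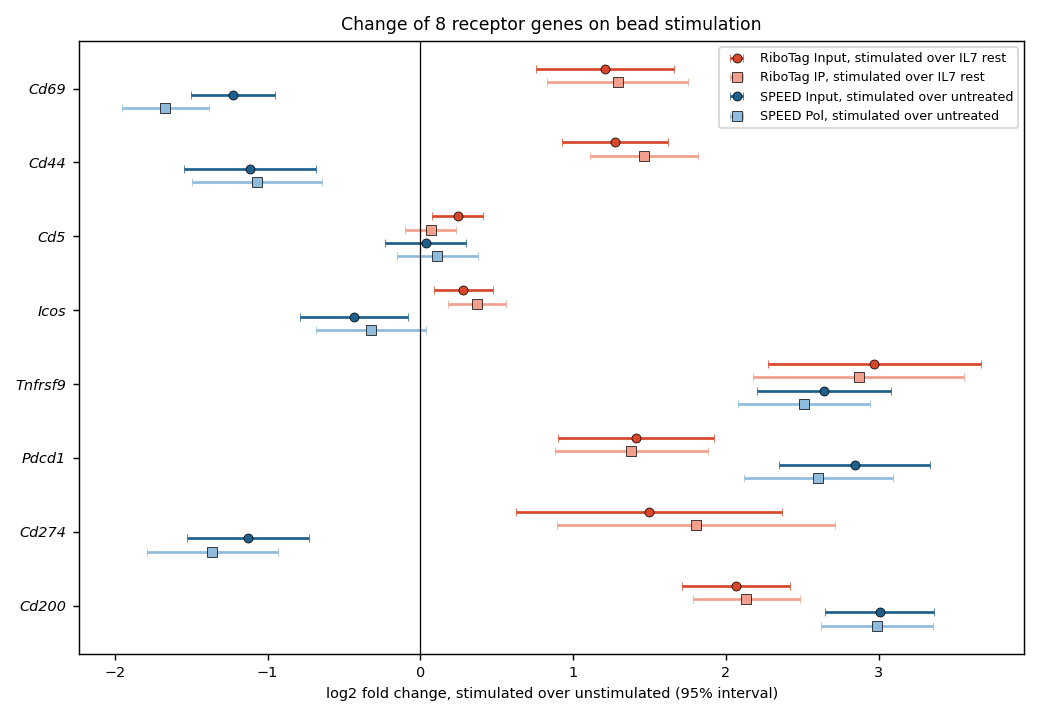
Log2 fold change on stimulation with its 95% interval for 8 members in the 4 comparisons (Lag3, at 0 in untreated cells, and Havcr2 are left out). The RiboTag values of Cd69, Cd44, Icos and Cd274 lie right of 0 and their SPEED values left of it, and Tnfrsf9, Pdcd1 and Cd200 lie right of 0 in all 4 comparisons.

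With Tregs, Pdcd1 and Cd5 were higher than with beads alone in both RiboTag fractions. These were 2 of 9 members in Input, beside 4.53% of genes changed, and 2 of 9 in IP, beside 5.69%. No member passed as lower, although Cd69 was lower with Tregs in 5 of 5 mice in Input (log2 -0.25, adjusted p = 0.595, edgeR) and Cd274 in 5 of 5 mice in IP (log2 -0.32, adjusted p = 0.717, edgeR). In SPEED no member passed in Input, beside 0.587% of genes changed, or in Pol, beside 0.282%. At an unadjusted p under 0.05 there were 3 members in SPEED Input and 2 in Pol, and DESeq2 called 0 in each.

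Pdcd1 had 113, 109, 102, 128 and 137 CPM in RiboTag Input with Tregs, against 65.6, 61.5, 77.9, 54.2 and 67.7 CPM with beads alone. It had 123, 128, 141, 131 and 109 CPM in IP with Tregs, against 68.4, 93.1, 72.3, 64.3 and 78.5 CPM with beads alone. Neither fraction had an overlap, and every mouse was higher with Tregs. The log2 fold change was 0.85 in Input (SE 0.23, adjusted p = 0.0238), a fold of 1.81, and 0.75 in IP (SE 0.23, adjusted p = 0.0459). Leaving out mouse 1, 3, 4 or 5 lost the call in each fraction (adjusted p up to 0.166 in Input and 0.246 in IP over all alternatives), while in mice 3 to 5 alone it held at 0.88 and 0.83 (adjusted p = 0.0228 and 0.0329).

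In SPEED, Pdcd1 had 199, 178, 198 and 188 CPM in Input with Tregs and 132, 166, 136 and 157 CPM with beads alone. In Pol it had 237, 216, 193 and 199.7 CPM with Tregs and 172, 174, 144 and 158 CPM with beads alone. It was higher in 4 of 4 mice in each fraction with no overlap, but the log2 changes of 0.37 (95% interval -0.06 to 0.80, adjusted p = 0.427) and 0.38 (-0.05 to 0.82, adjusted p = 0.686) did not pass. The difference between the assays was 0.49 (95% interval -0.16 to 1.15, adjusted p = 0.859).

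Cd5 had 416, 363, 305, 379.5 and 366 CPM in RiboTag Input with Tregs and 327, 281, 265, 300.1 and 302 CPM with beads alone. In IP it had 395, 368, 321, 401 and 395 CPM with Tregs and 323, 296, 266, 309 and 302 CPM with beads alone. The ranges overlapped slightly, and each of the 5 mice was higher with Tregs in both fractions. The log2 fold changes were 0.31 (SE 0.08, adjusted p = 0.0213) and 0.33 (SE 0.08, adjusted p = 0.0139). Leaving out mouse 4 or 5 lost both calls, and mouse 1 or 2 that in Input. In SPEED, Cd5 changed by 0.08 in Input (95% interval -0.18 to 0.35) and 0.05 in Pol (-0.22 to 0.32).

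Tnfrsf9 was higher with Tregs in each RiboTag mouse, by 0.54 in Input (SE 0.28, adjusted p = 0.309) and 0.66 in IP (SE 0.28, adjusted p = 0.17), and did not pass. It passed in both when only the 2 groups were fitted (adjusted p = 0.0255 and 0.0074). In SPEED Input its change was -0.09 (95% interval -0.49 to 0.30).

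The SPEED Input groups of Icos, Pdcd1, Lag3, Cd274 and Cd200 did not overlap between Tregs and beads alone. These were 5 of the 9 tested members, beside 12.2% of all tested genes with groups that did not overlap, and none passed the test. Lag3 had 24.9, 20.1, 19 and 18.6 CPM with Tregs, against 8.66, 14, 7.23 and 11.8 CPM with beads alone (log2 0.97, 95% interval 0.29 to 1.65, adjusted p = 0.178). Cd274 had 63.6, 67.7, 68.4 and 74.9 CPM, against 49.5, 48.7, 42.5 and 49.8 CPM (log2 0.53, 0.12 to 0.93, adjusted p = 0.22). Both were above beads alone in 4 of 4 mice. Cd200 had 326, 310.5, 297 and 323 CPM with Tregs, against 429.9, 407, 433 and 361 CPM with beads alone (log2 -0.38, -0.70 to -0.05, adjusted p = 0.273). In RiboTag Input the corresponding changes were 0.31 for Lag3 (-0.62 to 1.24), -0.19 for Cd274 (-1.01 to 0.63) and 0.10 for Cd200 (-0.22 to 0.42). Cd69 changed by -0.25 in RiboTag Input (-0.68 to 0.19) and -0.18 in SPEED Input (-0.46 to 0.10), and Cd44 by -0.14 (-0.47 to 0.19) and 0.36 (-0.07 to 0.80).

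No member passed the test of a difference between the assays in the Treg change, beside 0.142% of genes; 1 member, Cd200, had an unadjusted p under 0.05 (0.0372), and DESeq2 called 0 members.

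**Figure D3:**
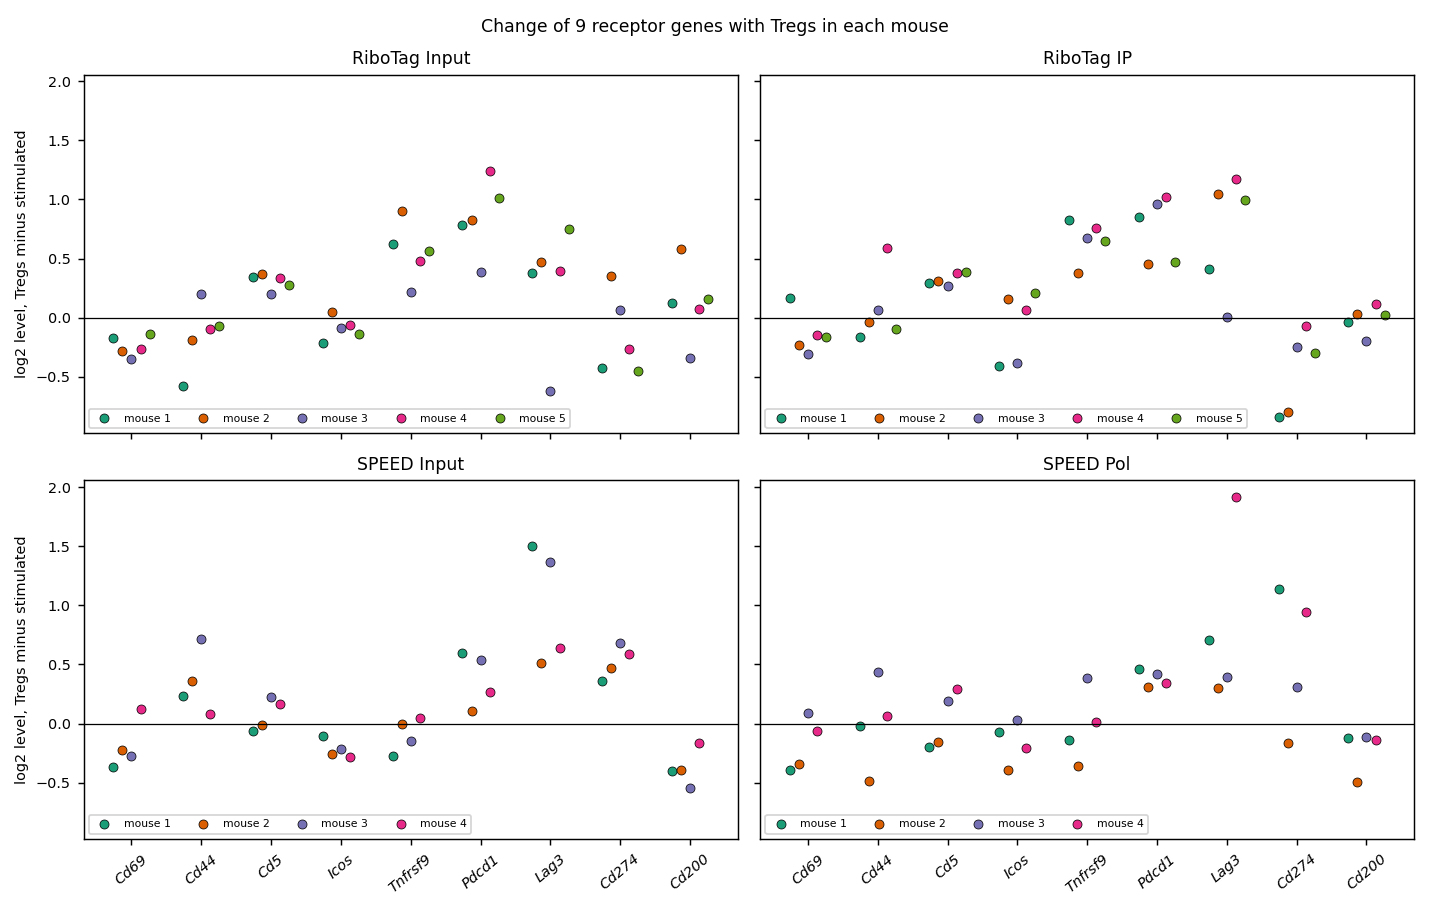
Log2 level with Tregs minus with beads alone in each mouse (points, 1 colour per mouse), for 9 members in the 2 fractions of each assay. Pdcd1 lies above 0 in all 5 RiboTag and all 4 SPEED mice in every panel, and Cd5 lies above 0 in all RiboTag mice.

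Within the RiboTag cultures, the fitted log2 ratios of IP over Input lay between -0.72 (Cd274 in rest) and 0.42 (Lag3 with Tregs). No member passed the test of IP against Input in IL7 rest (beside 6.89% of genes), with beads (0.977%) or with Tregs (1.85%). At an unadjusted p under 0.05 there were 3 members in rest and 0 in each of the others, and DESeq2 called 0 in all. Nor did any member pass for the change of the ratio on stimulation (0.0279% of genes) or with Tregs (0% of genes, 125 at an unadjusted p under 0.05 and 0 called by DESeq2). For these changes 0 members had an unadjusted p under 0.05, and DESeq2 called 0 members. With Tregs, the change of the ratio was -0.11 for Pdcd1 (95% interval -0.76 to 0.55) and 0.02 for Cd5 (-0.21 to 0.25).

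Cd69 and Cd274 were the lowest of the members in this ratio. Cd69 in IP over Input was -0.41 with beads (95% interval -0.85 to 0.02) and -0.32 with Tregs (-0.76 to 0.11), and below 0 in every mouse of the 3 culture groups. IP and Input of 1 culture share its state, and with each culture as a block Cd69 passed in rest, beads and Tregs (adjusted p = 0.00138, 0.00471 and 0.0171), and Cd274 in rest and with Tregs (adjusted p = 0.0497 and 0.0332). Cd5 lay the other way in rest, higher in IP in 5 of 5 mice by 0.20 on the log2 scale. It did not pass in the fit of all groups (adjusted p = 0.148, edgeR), but passed with the mouse (adjusted p = 0.0474) or the culture (adjusted p = 0.00835) as a block. The number of all genes called also depended on the fit. Over the alternatives, these blocks among them, up to 1922 of 10751 genes passed in rest, 849 with beads and 1207 with Tregs. The main fit called 741, 105 and 199. The calls of members under a block are therefore descriptions.

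In the sucrose fractions the members parted. Each ratio is relative to the other genes of its fraction, so a shift of most RNA between fractions would not show in it. Cd44, Cd5 and Tnfrsf9 were higher in Pol than in SubPol of stimulated cells, and Cd69, Cd274 and Cd200 were lower, 6 of 9 members, beside 45.4% of genes called. In untreated cells, Cd44 and Tnfrsf9 were higher and Cd69, Icos, Cd274 and Cd200 lower, also 6, beside 39.7%. Lag3 had no counts in untreated cells and gives no ratio there. The members' median log2 ratio was -0.14 in stimulated cells and, without Lag3, -0.105 (n = 8) in untreated cells, beside -0.01 and 0.04 over all genes.

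Cd274 had 16.8, 26.9, 31.3 and 24.8 CPM in Pol and 57.5, 66.7, 51.5 and 61.5 CPM in SubPol of stimulated cells, with no overlap. The log2 ratio was -1.24 (SE 0.21, adjusted p = 7.93e-06), and -0.79 in untreated cells (SE 0.20, adjusted p = 0.00127). Cd69 had 149.8, 149, 141 and 173 CPM in Pol and 239.5, 293, 260.4 and 295 CPM in SubPol, a log2 ratio of -0.83 (SE 0.14, adjusted p = 5.01e-06). Untreated Cd69 had a ratio of -0.46 (adjusted p = 0.00534), a call that was lost without mouse 3.

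Cd44 lay the other way. It had 71.3, 69.1, 64.1 and 70.1 CPM in Pol and 36, 37.7, 43.1 and 30.8 CPM in SubPol of stimulated cells, a log2 ratio of 0.88 (SE 0.22, adjusted p = 0.00112), and 0.95 in untreated cells (SE 0.21, adjusted p = 0.000344). Cd5 had a ratio of 0.59 in stimulated cells (SE 0.13, adjusted p = 0.000375). Tnfrsf9 had 0.56 (adjusted p = 0.0202), which was lost without mouse 1, 2 or 4, and 0.77 in untreated cells (adjusted p = 0.00851), lost without mouse 2. Cd200 had -0.54 (adjusted p = 0.00522), lost without mouse 4, and -0.72 in untreated cells (adjusted p = 0.00178), lost without mouse 3. Icos in untreated cells (-0.53, adjusted p = 0.0148) was lost without mouse 3 or 4.

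Neither Pdcd1 nor Lag3 passed between the sucrose fractions where it gave a ratio, and Havcr2 was not tested. Pdcd1 had a log2 ratio of -0.14 in stimulated cells (95% interval -0.58 to 0.29) and 0.30 in untreated cells (-0.25 to 0.84). Lag3 had 0.49 in stimulated cells (-0.21 to 1.19). With Input in place of SubPol, 1 member passed in each condition, Cd274, which was lower in Pol, beside 9.26% of genes in untreated and 8.33% in stimulated cells. The calls of Cd69, Cd44, Tnfrsf9 and Cd200 in both conditions, of Icos in untreated and of Cd5 in stimulated cells were lost there. The log2 ratio of Cd69 in Pol over Input was -0.42 in stimulated cells (adjusted p = 0.0541) and 0.03 in untreated cells (adjusted p = 0.951).

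Stimulation did not move these ratios past the test for any of the 8 members that gave a value, beside 2.6% of genes. Their changes lay between -0.45 (Cd274) and 0.34 (Cd5), 0 had an unadjusted p under 0.05, and DESeq2 called 0. Nor did any pass with Tregs (9 members, 0% of genes called, 328 at an unadjusted p under 0.05, 0 by DESeq2), with changes between -0.25 (Cd5) and 0.60 (Lag3, 95% interval -0.38 to 1.58). For Pdcd1 it was 0.07 (-0.54 to 0.68).

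After 10 min of HHT the ratios of several members lay nearer 0 than with beads alone, and Cd69 passed the test. Its Pol over SubPol ratio rose by 0.68 on the log2 scale (SE 0.21, adjusted p = 0.0171), 1 of 9 members, beside 23% of genes called. This rise is relative to the other genes, whose median change the scaling holds near 0 (0.062), and is not an absolute polysome load. Cd69 had 135, 209.6 and 146 CPM in Pol and 170.2, 207 and 166 CPM in SubPol of HHT cells of mice 1 to 3. The call was lost without mouse 2 or 3. Cd44 changed by -0.85 (95% interval -1.52 to -0.18, adjusted p = 0.06), and passed with the mouse as a block, where 2 members did. Cd5 changed by -0.43 (adjusted p = 0.127), Cd274 by 0.67 (adjusted p = 0.137) and Cd200 by 0.55 (adjusted p = 0.101), with unadjusted p under 0.05 for 5 members in all. These changes and the ratios of stimulated cells share the stimulated libraries.

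**Figure D4:**
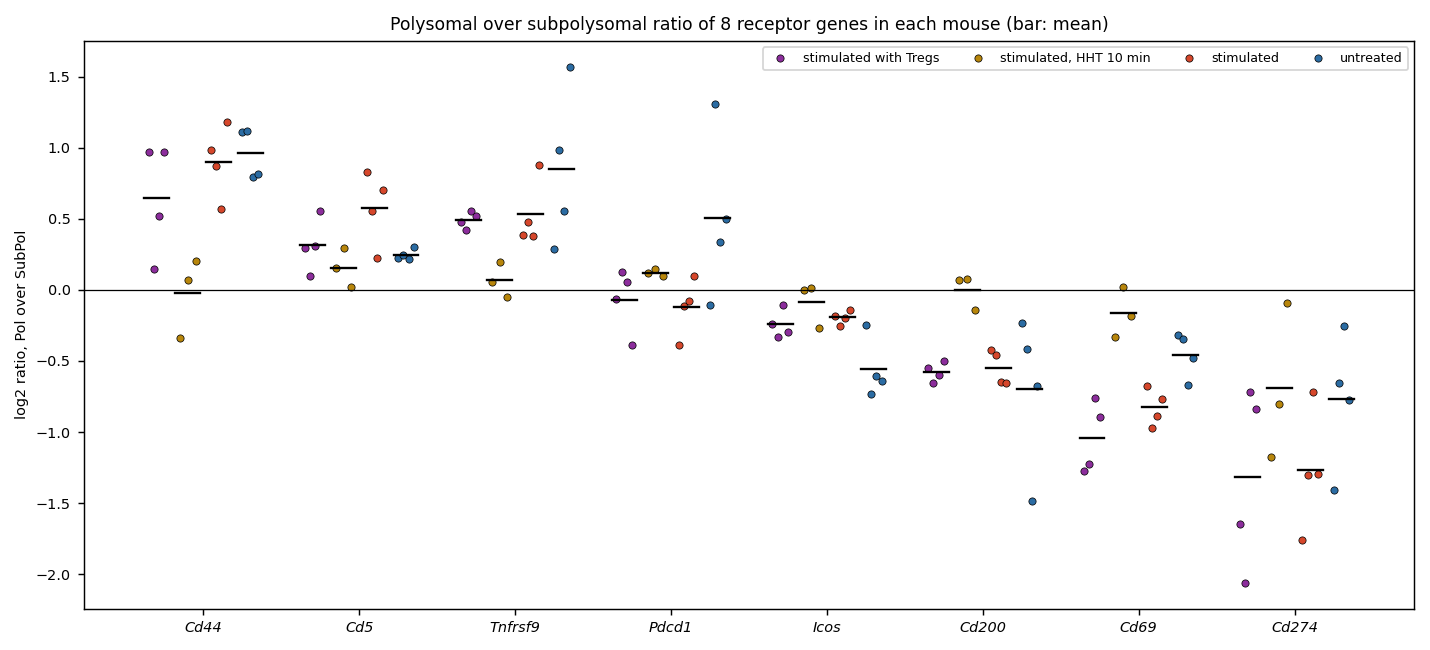
Log2 ratio of Pol over SubPol for 8 members in each SPEED mouse (points) with the mean (bar), in 4 culture groups. Cd44 lies above 0 and Cd69 and Cd274 below 0 in every stimulated and untreated mouse, and in HHT cells the means of all 8 members lie between -0.69 and 0.16.

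In Input, no member passed between HHT and beads alone, beside 0.105% of genes, with 3 at an unadjusted p under 0.05 and 0 by DESeq2. HHT Input came from 2 mice. Cd44 had 88.8 and 63.2 CPM with HHT, against 46.9, 31.3, 49.2 and 56.7 CPM with beads alone (log2 0.73, 95% interval 0.22 to 1.25, adjusted p = 0.457), and Cd69 had 144 and 164 CPM, against 210.1, 189.7, 219 and 198 CPM (log2 -0.40, -0.75 to -0.06, adjusted p = 0.572).

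Havcr2 was near the limit of these libraries. It had a count in 4 of 30 RiboTag libraries, 18 counts in all and 8 at most, and in 2 of 44 SPEED libraries, 11 counts in all and 10 at most. The RiboTag counts were in beads-alone or Treg cultures: 2.56 CPM in stimulated Input of mouse 5, 3.24 and 0.953 CPM in stimulated IP of mice 5 and 4, and 0.502 CPM in Treg Input of mouse 1. No rested and no untreated library held a count. With 3 counts set in place of 0 at rest and the stimulated counts taken as exact, the ratio to rest was 2.18 in stimulated RiboTag Input and 3.24 in IP. The counts of Input came from 1 mouse and those of IP mostly from the same mouse. These ratios are therefore not lower limits for the stimulated group.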

How the data were processed

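The authors deposited 1 table of raw read counts per gene for each assay, per the file headers. Per the submitters' processing notes, reads were handled with SAMtools 1.2, FastQC 0.11.3, Picard 1.134 and HTSeq 0.4.1 on build GRCm38. Libraries were made with SMART-Seq v4 and NexteraXT, per the labels' protocols; that chemistry does not mark strand, so overlapping antisense RNA cannot be told apart. A further 16 RiboTag columns match no sample and were not used, and a second SPEED library titled HHT Input of mouse 1 was left out of the main fit.

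The counts went into edgeR 4.0.16 under R 4.3.3 (filterByExpr with a minimum count of 10 and total of 15, TMM, robust quasi-likelihood test of all groups of an assay together, two-sided, Benjamini-Hochberg at 0.05). Ratios between fractions and their changes were contrasts of the same fit. The standard error is the log2 fold change over the root of F, and per-mouse ratios add 0.5 counts. The Treg comparisons in Input were tested on simulated counts, and the outcome is not reported here. Each library was drawn independently, with no effect of mouse or culture. The simulation therefore says nothing on the pairing, the fraction ratios or the stimulation changes.

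The labels give same-numbered libraries 1 mouse, which pairs them. The main fit held no term for the mouse or the culture, so its p-values are not paired, and blocks were alternatives. Over the tested genes, the deviations of libraries of 1 mouse from their group means had an average correlation of 0.149 (RiboTag) and 0.038 (SPEED). The highest values were 0.416 and 0.196. Within groups, no pair of libraries agreed within sampling noise (chi-square per degree of freedom 1.79 or more in 123 pairs); pairs across groups were not compared.

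The 10 members, the lists and the comparisons were chosen with earlier results of these data known. The rule was to name every member. The planned companion genes and cell type markers could not be used, because the reference table pairs no Ensembl identifier with a symbol, and likewise no gene with the most similar pattern is named. Alternatives were RLE scaling, no filter, the mouse or the culture as a block, only the groups compared, each mouse left out, Pol over Input, the repeated library and DESeq2 1.42.0; mice 3 to 5 alone, mice 1 and 2 alone (also in the joint fit), leaving out the untreated SubPol library of mouse 3 and the stimulation difference between assays were added after seeing the data.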

Additional observations from a re-analysis of the deposited data

Results flagged for a closer look

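Among 136 sets of 4 or 5 libraries of 1 gene and group, 13 held a library far from the others by Dixon's criterion, which chance flags in about 1 set in 20. In RiboTag, these were Cd69 in rested Input of mouse 2 (139 CPM, next 73.8), Tnfrsf9 in stimulated Input of mouse 2 (59.6, next 94.1), and Lag3 in IP of mouse 2, the highest in rest (1.33) and the lowest with Tregs (3.9). In SPEED, mouse 4 with Tregs was the highest in Cd5 Pol (698 CPM), Tnfrsf9 Pol (381) and Tnfrsf9 SubPol (265). The lowest libraries were Icos in untreated SubPol of mouse 2 (343 CPM), Tnfrsf9 in stimulated SubPol of mouse 3 (130.5) and Cd274 in stimulated Input of mouse 3 (42.5). Havcr2 was flagged where 1 library alone held counts, at 2.56 CPM in RiboTag stimulated Input, 0.502 in RiboTag Treg Input and 0.65 in SPEED Treg Pol. A set of this kind is always flagged, and Lag3 in rested IP was another. The rate of 1 in 20 does not apply to such sets.

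The stimulation change of 7 members differed between the assays in the joint test, RiboTag minus SPEED on the log2 scale, by 2.44 for Cd69, 2.40 for Cd44, 0.72 for Icos, 2.64 for Cd274, -1.43 for Pdcd1, -0.94 for Cd200 and -3.75 for Lag3. The last is a fitted value that depends on the prior count, because untreated cells held no Lag3 count. With RiboTag mice 3 to 5 alone, Pdcd1 (-0.64), Cd200 (-0.45) and Lag3 did not pass and Tnfrsf9 (1.48) did, and with mice 1 and 2 alone Icos did not. The unstimulated culture, the strain and the assay cannot be told apart here.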

How the results depend on the processing

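Of 2310 member values under alternatives, 2214 kept their side of the threshold, 73 lost the call, 23 gained it and 0 reversed. Members called with Tregs, 2 in RiboTag Input and 2 in IP, became 0 in Input with no filter, 0 to 1 without each mouse, 1 in mice 3 to 5 alone and 0 in mice 1 and 2 alone, and in IP 1 with RLE scaling, 1 with no filter, 0 to 2 without each mouse and 0 in mice 1 and 2 alone. In SPEED Input, 1 member (Cd200, lower) passed when only the compared groups were fitted. In RiboTag IP, stimulation called 5 members in mice 1 and 2 alone. With all mice and no filter, Havcr2 passed on stimulation in RiboTag IP (adjusted p = 0.0377, edgeR). Stimulation calls without each mouse ranged from 8 to 9 in RiboTag Input, 8 in IP, 7 to 8 in SPEED Input, 7 to 8 in Pol and 6 to 7 for the difference between assays, which called 5 members with RiboTag mice 3 to 5 alone and 6 with mice 1 and 2 alone.

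For IP over Input, members called were 0; with the mouse as a block (the replicate block) 1 in rest, Cd5, with the culture as a block 3 in rest, 1 with beads and 2 with Tregs, and 1 in rest in mice 3 to 5 alone. Members of Pol over SubPol fell to 1 in untreated and 1 in stimulated cells with Pol over Input, and ranged from 3 to 7 and from 4 to 6 without each mouse. For the HHT change, 1 member became 2 with the mouse as a block, with only the compared groups, without the untreated SubPol library of mouse 3 and with DESeq2, 4 with the culture as a block, 0 with Pol over Input and 0 to 1 without each mouse. The block of the mouse changed no other member count by over 1.5 times. The cause of these changes was not tested. With the mouse as a block, 1116 of all genes passed for IP over Input in rest (741 in the main fit). For the HHT change 3162 did (2860 in the main fit). The number of all genes called moved with the fit, so member counts under the alternatives are descriptions.

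Counts over all genes depended on the fit. Over the alternatives they ranged from 77 to 948 for Tregs in RiboTag Input (487 as reported, 843 with the mouse block), 73 to 1077 in IP (612), 6 to 257 in SPEED Input (73) and 3 to 78 in Pol (35). For IP over Input they ranged from 13 to 1922 in rest (741), 14 to 849 with beads (105), 15 to 1207 with Tregs (199) and 0 to 19 for the change on stimulation (3). Pol over Input gave 1151 genes in untreated (4929) and 1035 in stimulated cells (5642), and the changes ranged from 1 to 710 on stimulation (323) and 44 to 3328 with HHT (2860). Stimulation in mice 1 and 2 alone gave 4100 genes in RiboTag Input (6810) and 4482 in IP (6956), HHT Input 2 to 35 (13), and the Treg difference between assays 5 to 50 (16). With few counts, Lag3 and Havcr2 limit what these depths can show.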
